A study of Drosophila melanogaster with 8 samples.

Results

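Ten-m, lola, heca and Frl are 4 protein-coding genes over which phosphorylated p38 (P-p38) peaks were dense in untreated Drosophila S2 cells and sparse after oxidative stress. They were selected by name, with these data already known, for their many peak summits in the control libraries, out of 13922 protein-coding genes on the 6 chromosome arms. P-p38 was mapped by chromatin immunoprecipitation and sequencing (ChIP-seq) in wild-type S2 cells, a haemocyte-like embryonic line, that were kept for 30 min at 25 ºC with 10 mM H2O2 or with an equal volume of medium alone. Of the 8 samples, 4 are immunoprecipitations with a peak list (2 control, 2 H2O2) and the other 4 are inputs, not analysed here. The control lists held 4314 and 2988 peaks on the arms and the H2O2 lists held 6434 and 4019. The 4 genes together held the summits of 266 of these 17755 peaks. The labels do not say whether the replicates were separate cultures, and the read depth behind the lists is unknown.

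p38 is a stress-activated MAP kinase that is switched on by dual phosphorylation, and part of the active pool enters the nucleus, where it phosphorylates transcription factors and chromatin proteins. A ChIP peak for a kinase marks DNA that was crosslinked near it, directly or through other proteins. Ten-m encodes a teneurin, a large transmembrane protein with EGF-like repeats that takes part in cell adhesion and in the matching of synaptic partners. lola encodes a family of BTB zinc-finger transcription factors, made by alternative splicing, that act in axon guidance and cell fate. heca (headcase) encodes a cytoplasmic protein that acts in imaginal cells and in tracheal branching and is a partner of the zinc-finger protein Unkempt. Frl encodes a formin, one of the proteins that nucleate and elongate unbranched actin filaments.

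In Release 6 of the genome (dm6), Ten-m spans 114820 bp (3L, 22293044 to 22407863), with 3 RefSeq transcripts. heca spans 94451 bp (3R, 30277932 to 30372382), with 4 transcripts. lola spans 61398 bp (2R, 10481894 to 10543291), with 25 transcripts. Frl is the shortest at 18369 bp (3L, 14053215 to 14071583), with 4 transcripts. By length these genes stand at percentiles 99.6, 99.3, 98.4 and 92.0 of protein-coding genes. Exons and introns were not separated, and the gene table used here gives no strand, so positions are counted from the end with the lower coordinate.

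The summit counts that brought these genes together are given as a description, with no test, because the contrast between control and H2O2 is what chose them. Ten-m had 61 and 91 summits in control replicates 1 and 2, and 5 and 11 in H2O2 replicates 1 and 2. heca had 20 and 12 summits in control and 2 and 2 in H2O2. lola had 16 and 12 in control and 2 and 3 in H2O2. Every control value of these genes exceeded every H2O2 value of the same gene. Frl had 14 and 15 summits in control, and no peak summit was listed in it in either H2O2 library. A lack of H2O2 summits was common: 34.8% and 37.3% of protein-coding genes of at least 15 kb had any in H2O2 replicates 1 and 2. All 4 genes thus had more summits in both control than in both H2O2 libraries, as the choice of genes required, and 7.29% of the 1358 protein-coding genes of at least 15 kb did. The converse was found for 14.7% of those genes.

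Relative to gene length, Frl and Ten-m were the densest in control, with 7.89 ± 0.385 and 6.62 ± 1.85 summits per 10 kb (mean ± SD, n = 2), and their ranges overlapped. lola had 2.28 ± 0.461 and heca 1.69 ± 0.599 summits per 10 kb, again with overlapping ranges, and both lay below the other pair in each control library. In H2O2 the densities were 0.697 ± 0.370 for Ten-m, 0.407 ± 0.115 for lola and 0.212 ± 0 for heca (mean ± SD, n = 2). Over all genes of at least 15 kb, the pooled density was 0.323 and 0.176 summits per 10 kb in the control libraries and 0.493 and 0.274 in the H2O2 libraries. The H2O2 density of Ten-m lay below the pooled value in replicate 1 (0.435) and above it in replicate 2 (0.958). For lola the order was the same, with 0.326 in replicate 1 and 0.489 in replicate 2. For heca it was below in both. By the number of control summits Ten-m ranked first among the 1358 genes in both control libraries, while in H2O2 it ranked 130 and 17. By density Frl ranked 4 and 1 in control, Ten-m 12 and 2, lola 62 and 36, and heca 87 and 60. By density, the description of these genes as dense with control summits thus fits Frl and Ten-m more closely than lola and heca.

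**Figure D1:**
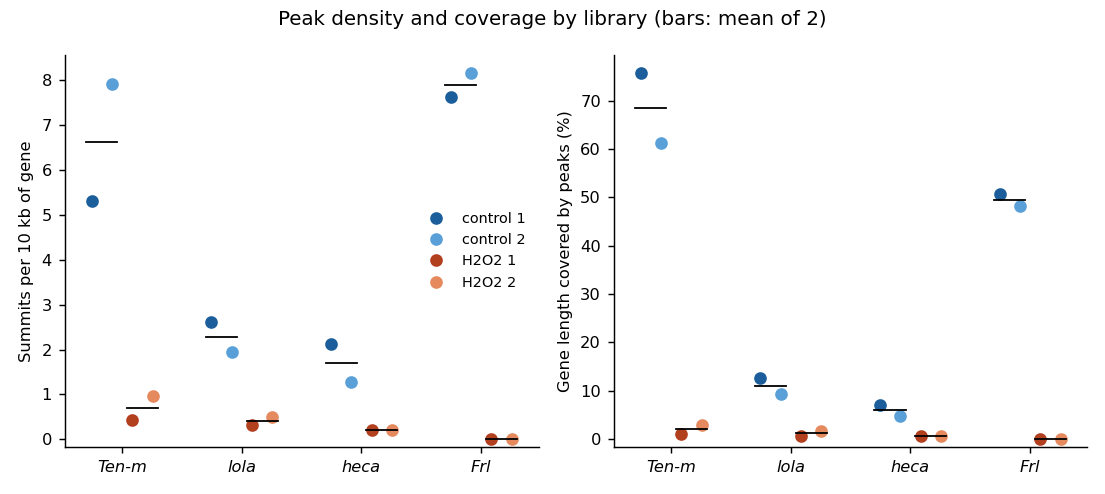
Summits per 10 kb of gene (left) and share of gene length covered by peaks in percent (right) for the 4 genes, with 1 point per library and a bar at the mean of each pair. In each gene both control points lie above both H2O2 points, and Ten-m coverage runs from 61.2% to 75.7% in control against 1.17% and 2.89% in H2O2.

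Peaks ran along the whole length of Ten-m in control cells. Peaks covered 75.7% of its length in control replicate 1 (86950 bp) and 61.2% in replicate 2 (70219 bp), against 1.17% and 2.89% in the H2O2 libraries. Divided into 23 bins of 5 kb, the gene had a summit in 22 bins in control replicate 1 and in all 23 in replicate 2, while 5 and 8 bins had one in H2O2. Summits were spread evenly, with 21, 20 and 20 in 3 equal parts of the gene, from the lower to the upper end, in control replicate 1 and 32, 29 and 30 in replicate 2. The most covered bins reached 100% in replicate 1 (40 to 45 kb from the lower end) and 85.3% in replicate 2 (90 to 95 kb). The least covered bins lay at the ends of the gene, with 10.9% in replicate 1 (from 110 kb on) and 15.4% in replicate 2 (0 to 5 kb). The median spacing of consecutive summits was 1432.5 bp in replicate 1 and 1056 bp in replicate 2.

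The 2 control libraries divided Ten-m differently. Replicate 1 had fewer and wider peaks, with a median width of 767 bp, a widest peak of 6657 bp and 27 of 61 peaks over 1000 bp. Replicate 2 had more and narrower peaks, with a median of 527 bp, a widest peak of 3107 bp and 24 of 91 peaks over 1000 bp. The number of summits in Ten-m therefore does not follow the bases covered: replicate 2 had 1.49 times as many summits as replicate 1 and 0.808 times as many covered bases. The 2 libraries shared 59231 covered bp, 68.1% of the bases of replicate 1 and 84.4% of those of replicate 2. Of the 61 summits in replicate 1, 41 lay inside a replicate 2 peak, and of the 91 in replicate 2, 75 lay inside a replicate 1 peak. With so much of the gene covered, such sharing is read beside the 61.2% and 75.7% of bases that lie in the other library's peaks. Over the 23 bins, covered shares of the control libraries had a Pearson r of 0.587, which is a description of neighbouring stretches of a single gene.

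The few H2O2 peaks in Ten-m were narrower by median than its control peaks. The H2O2 summits lay inside peaks of control replicate 1, though not all inside peaks of control replicate 2. All 5 summits of H2O2 replicate 1 and all 11 of replicate 2 fell inside a peak of control replicate 1, which covers 75.7% of the gene. Inside a peak of control replicate 2, which covers 61.2% of the gene, lay 3 and 8 of them. The widths of these H2O2 peaks ran from 203 to 391 bp in replicate 1 and from 202 to 508 bp in replicate 2. Their medians, 253 and 284 bp, were near the 296 and 270 bp of all peaks in those lists. The highest of the 3 equal parts of the gene held 0 of 5 and 1 of 11 of the H2O2 summits. After overlapping peaks of the 4 libraries were merged, Ten-m held 51 regions, of which 25 had peaks from the control pair alone, 15 from a single control library, 8 from the control pair and 1 H2O2 library, and 3 from all 4. No region had H2O2 peaks alone. The widest region spanned 8004 bp (3L, 22323826 to 22331829) and had peaks in the control pair and in H2O2 replicate 2. The regions of all 4 libraries spanned 22295285 to 22297905, 22305823 to 22308775 and 22332020 to 22338077 on 3L. For each library a region took the highest percentile of the authors' fold enrichment among its peaks, which favours libraries with more peaks there. The strongest region in control replicate 1 (22305823 to 22308775) stood at 97.3 of that list. It stood at 84.0 of the control replicate 2 list, against 26.7 and 57.5 in the H2O2 lists. In the same order, the region from 22295285 stood at 93.7 and 80.0 against 30.0 and 49.2. The region from 22332020 stood at 91.5 and 85.3 against 66.1 and 79.2. In the order given, these regions held 3, 2 and 4 peaks of control replicate 2, but 1 each of control replicate 1. Each H2O2 library had 1, 1 and 2.

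**Figure D2:**
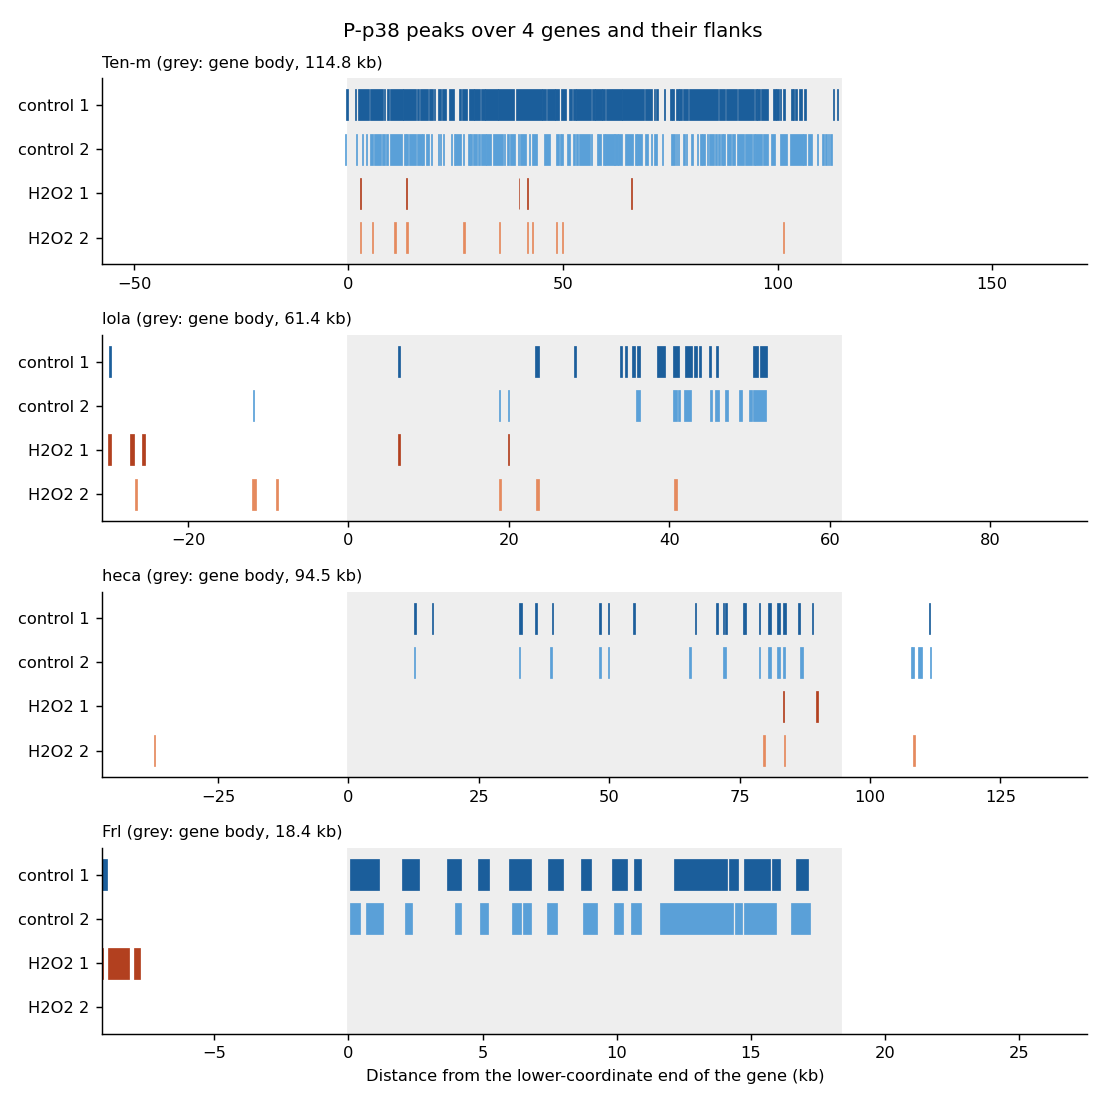
Peak intervals in each library over the 4 genes (grey) and over part of the flanks on either side, by distance in kb from the lower-coordinate end of the gene. Control peaks run along the whole of Ten-m and Frl, covering 48.2% to 75.7% of them. They gather in the middle and upper parts of lola and toward the upper end of heca. Few peaks lie just outside the genes.

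Few control summits lay outside Ten-m, and its control coverage thinned before the upper end of the gene. In flanks as long as the gene itself, 114820 bp on each side, control replicate 1 had 1 summit below and 1 above, and replicate 2 had 1 below and 0 above. The lower flanking summits lay 479 and 564 bp outside the gene, within IleRS, the neighbouring gene for isoleucyl-tRNA synthetase, which ends 234 bp away. Upward, the nearest outside summits were 83947 and 289623 bp away in control, and the nearest protein-coding gene, CG11449, 46510 bp away, held none in any library. Inside the gene the last summits lay 715 and 2499 bp from the upper end. From 100 kb on, bins were covered over 43.3%, 19.0% and 10.9% in control replicate 1 and 76.8%, 49.7% and 37.5% in replicate 2. Summits outside the gene had no part in its choice. In H2O2 the 2 flanks together held 6 and 0 summits.

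Genes that overlap Ten-m shared its control coverage. The long noncoding RNA gene lncRNA:CR45962 lies over 59380 bp of the upper part of Ten-m and held 32 and 47 of the control summits and 1 summit in each H2O2 library. The small nested gene CG32450 was covered over 100% and 72.5% of its length in control and over 0% in H2O2. The short noncoding genes lncRNA:CR45963, lncRNA:CR45964 and lncRNA:CR45965 were covered over 93.1% to 100% in control replicate 1 and over 72.0% to 77.6% in replicate 2. Peaks in these stretches cannot be assigned to Ten-m or to the overlapping gene.

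Frl showed the same pattern on a smaller scale, with control peaks along the whole gene and none in H2O2. Peaks covered 50.8% and 48.2% of Frl in control and 0% in both H2O2 libraries. Each of its 4 bins of 5 kb held between 2 and 5 summits in either control library. The control libraries placed these peaks nearly alike: 11 of the 14 summits of replicate 1 had a replicate 2 summit within 250 bp, and the median distance to the nearest was 89 bp. Peaks shared 7341 bp, which is 78.7% of the bases of replicate 1 and 82.9% of those of replicate 2. All 12 merged regions in Frl had peaks from the control pair alone. The widest was 3055 bp (3L, 14064837 to 14067891), at percentiles 88.2 and 83.8 of fold in the control lists. A region at the lower end (14053256 to 14054509), which overlaps the antisense gene asRNA:CR46067, stood at 81.3 and 86.5. These too are the highest values among each region's peaks.

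Above the upper end of Frl no library had a summit for at least 460859 bp, whereas both treatments had some below its lower end. The nearest lay at that distance and at 466226 bp in control, and at 651635 and 677569 bp in H2O2. In the 18369 bp below the gene, control libraries had 5 and 3 summits and H2O2 libraries 3 and 2, so H2O2 peaks were listed beside Frl but not in it. The adjacent gene CG13484, 136 bp below, had no summit in any library.

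In lola, control summits gathered toward the upper end of the gene and left both ends free. Peaks covered 12.7% and 9.42% of lola in control and 0.752% and 1.68% in H2O2. In 3 equal parts of the gene, from the lower to the upper end, control replicate 1 had 1, 8 and 7 summits, and replicate 2 had 2, 2 and 8. The fullest bins held 4 summits, at 40 to 45 kb in replicate 1 and at 45 to 50 kb in replicate 2. Between the last control summit and the upper end lay 9943 and 9915 bp with no summit, and the first summits were 6224 and 18845 bp from the lower end. That upper stretch includes the small nucleolar RNA genes snoRNA:lola-a to snoRNA:lola-d, over which no library had a peak, and the antisense gene asRNA:CR45135, likewise without one. At the lower end neither the overlapping segment pre-lola-G nor the adjacent gene Pef, 8 bp away, held a summit in any library. The control libraries shared 3781 bp, 48.6% of the peak bases of replicate 1 and 65.4% of those of replicate 2, while peaks of the other library covered 9.42% and 12.7% of the gene. Over its 13 bins the covered shares had a Pearson r of 0.719, as a description.

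Of the 5 H2O2 summits in lola, 4 lay below the stretch where control summits were densest. In H2O2 replicate 1 they lay 6308 bp from the lower end and 13690 bp further on, and in replicate 2 they lay at 18.9, 23.6 and 40.8 kb. Each of these 5 summits lay in a peak of at least 1 control library: of the 20 merged regions in lola, 4 had a peak in 1 control and 1 H2O2 library and 1 had peaks in the control pair and 1 H2O2 library. Another 5 had peaks from the control pair alone and 10 from a single control library. The region of 3 libraries spanned 10522306 to 10523153 on 2R. The widest peak in lola was 1569 bp long in control (replicate 2) and 453 bp long in H2O2 (replicate 2). In flanks as long as the gene, the 2 sides together held 0.244 and 0.489 summits per 10 kb in control, where the gene itself held 2.61 and 1.95. In H2O2 the flanks held 0.244 in each library and the gene 0.326 and 0.489.

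heca had its control summits in separate peaks, most of them toward the upper end of the gene. Peaks covered 7.17% and 4.73% of heca in control and 0.736% and 0.578% in H2O2. Of the control summits 12 of 20 and 7 of 12 lay in the highest of 3 equal parts of the gene, and so did both summits of each H2O2 library. The first summit of any library lay 12695 bp from the lower end of heca, and no peak of any library covered the short nested gene CG34300. The nested noncoding gene lncRNA:CR46114 held 1 summit of H2O2 replicate 2, whose peak covered 37.4% of it, and none of the other libraries. The median peak in heca was 324 bp wide in control replicate 1, 302 bp in control replicate 2, 347.5 bp in H2O2 replicate 1 and 273 bp in H2O2 replicate 2. Over all peaks of these lists the medians were 324, 354.5, 296 and 270 bp, in the same order. The widest peak in heca was 701 bp in control and 393 bp in H2O2. Of the 12 summits in control replicate 2, 9 had a replicate 1 summit within 250 bp, and the median distance to the nearest was 145 bp. Of the 20 in control replicate 1, 9 had a replicate 2 summit that near, and the median distance was 318.5 bp. Shared bases were 38.4% of those of replicate 1 and 58.3% of those of replicate 2. Over 19 bins the covered shares of the control libraries had a Pearson r of 0.922, the highest of the genes with more than 10 bins. A region of all 4 libraries (3R, 30361164 to 30361864, 701 bp) stood at percentiles 86.4 and 68.2 of fold in control and 58.9 and 45.0 in H2O2. Of the other 23 regions, 8 had peaks from the control pair alone, 13 from a single control library and 2 from a single H2O2 library. The 2 flanks of 94451 bp held 11 and 9 control summits and 1 and 5 H2O2 summits in all, among them summits in Fer1HCH, the gene for a ferritin subunit 13191 bp above heca, which had 0 and 3 in control and 0 and 1 in H2O2. On the lower side the nearest protein-coding gene, CG18404, had no summit.

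The genes differed in how strongly their control peaks stood out. Fold enrichment, the authors' linear ratio to a background of the peak caller, was turned into a percentile within each list. The median percentile of fold was 78.5 and 63.9 for Ten-m in the control libraries, 62.5 and 61.5 for heca and 58.1 and 58.7 for Frl, all above the middle of the lists. lola lay far lower, at 30.4 and 3.96. No peak in these genes reached the top of a list: the highest fold was 2.56 (Ten-m, control replicate 1), where that list reached 6.22. In the H2O2 libraries the median percentile was 50.1 and 65.2 for Ten-m, 58.9 and 65.3 for heca and 7.76 and 18.9 for lola. The order of lola below Ten-m and heca thus appeared in all 4 libraries.

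Peaks in lola ranked lower by fold than by q-value. The median percentile of -log10 q was 61.6 in control replicate 1, 26.4 in control replicate 2, and 13.6 and 45.8 in the H2O2 libraries, in each case above the median percentile of fold. In control replicate 1 alone the median -log10 q of lola peaks (3.39) exceeded that of the list (2.77), and it reached 10.0 although the highest fold there was 1.76. In control replicate 2 the median was 1.57, below the 2.50 of the list. Ranked within the list, -log10 q stood above fold for 26 of 28 control peaks and all 5 H2O2 peaks of lola, and for all 29 control peaks of Frl. In heca it did so for 0 of 32 control peaks and 0 of 4 H2O2 peaks, and in Ten-m for 40 of 152 control and 1 of 16 H2O2 peaks. Among all peaks on the arms this share was 41.4% and 40.9% in the control lists and 35.4% and 39.1% in the H2O2 lists. The read counts under the peaks were not used here, and their part in these ranks was not tested.

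**Figure D3:**
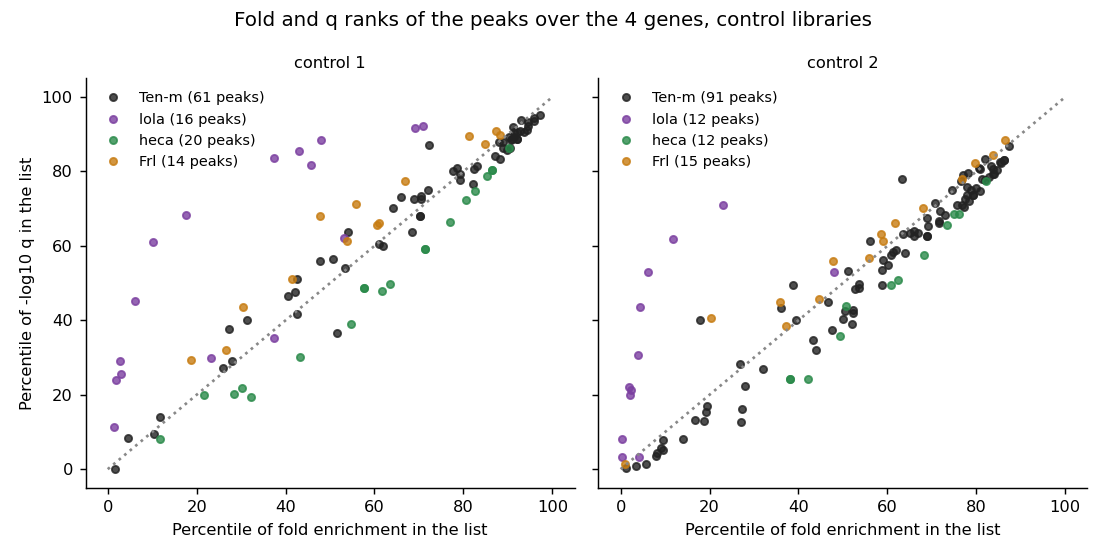
Percentile of fold enrichment (x axis) against percentile of -log10 q (y axis) within each control list, with 1 point per peak in the 4 genes and a dotted line where both ranks are equal. Most points of lola lie above the line and to the left, those of heca below it, those of Frl just above it and those of Ten-m along it.

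At a q of 1e-05 or less, which keeps 931 and 767 control and 624 and 306 H2O2 peaks, no H2O2 peak was left in any of the 4 genes. Ten-m then had 31 and 25 control summits, Frl 4 and 4, heca 4 and 1, and lola 6 and 0, so that lola was left with summits in replicate 1 alone. With lists of equal length, made of the 2988 peaks of highest fold, the 4 genes together held 89 and 130 summits in control and 3 and 12 in H2O2. In the deposited lists, the 4 genes took 2.57% and 4.35% of the control peaks, and 0.140% and 0.398% of the peaks after H2O2.

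Other long genes had profiles like these. Among the 1012 protein-coding genes of at least 20 kb, 6.72% had more summits in both control than in both H2O2 libraries and 16.6% the converse. That balance turned at a q of 1e-05 or less, from 68 against 168 genes to 23 against 9. The cut also left more control than H2O2 peaks, whereas lists of equal length gave 80 against 118 genes. By Euclidean distance over the 4 libraries' summits per 10 kb, the profile nearest to the mean of the 4 genes was that of sty, which encodes Sprouty, an antagonist of receptor tyrosine kinase signalling, with 11 and 10 summits in control and 0 and 2 in H2O2. pnt, the ETS transcription factor gene pointed, followed with 34 and 26 in control and 0 and 3 in H2O2. Next came ena, an actin-filament elongation factor gene (8 and 7 against 0 and 0), the LIM-homeobox gene ap (5 and 10 against 1 and 2), the kinase gene Hipk (14 and 11 against 0 and 6) and zfh1, a zinc-finger and homeodomain factor gene (10 and 18 against 1 and 2). Taken singly, zfh1 was nearest to Ten-m (distance 1.04) and to Frl (3.49), Sarm, which encodes an NAD-cleaving enzyme of axon degeneration, to lola (0.518), and the insulin receptor gene InR to heca (0.291). Outside this rule, and picked after the counts were seen, CG31145 had 35 and 26 control summits and also 18 and 18 in H2O2, so many control summits did not always come with few in H2O2.

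**Figure D4:**
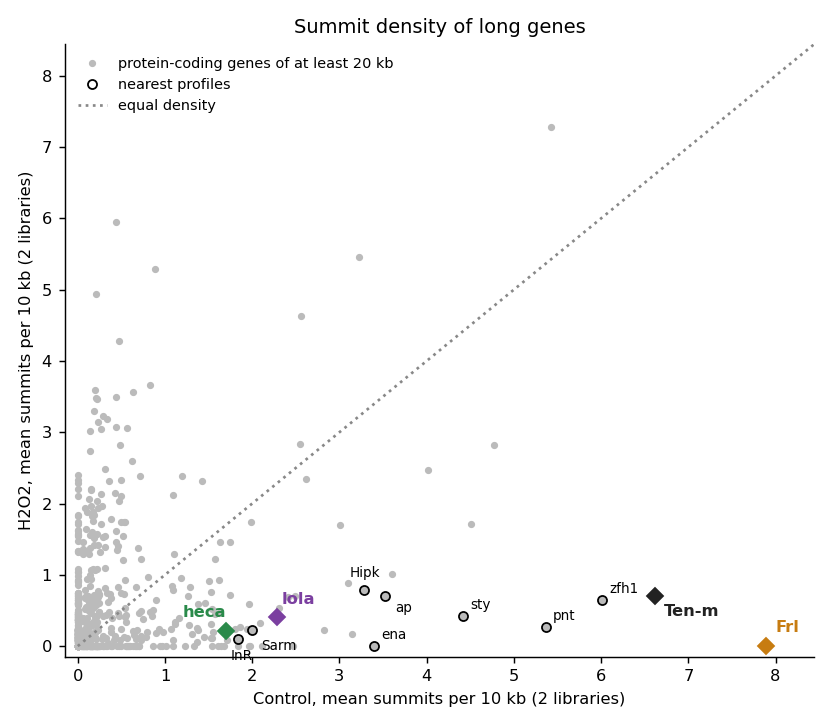
Mean summits per 10 kb in H2O2 (y axis) against control (x axis) for protein-coding genes of at least 20 kb (grey), the 4 genes (diamonds, Frl being 18.4 kb long) and the genes with the nearest profiles (circles). Ten-m and Frl lie far to the right near the bottom, at 6.62 and 7.89 in control, and lola and heca lie nearer the origin.

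Of 23 genes related to the 4 by family or partnership, 3 had more summits in both control than in both H2O2 libraries and 3 the converse. Of all 13922 protein-coding genes 3.79% and 3.19% did. Most of the 23 are at least 20 kb long, and at that length the shares were 6.72% and 16.6%. These few genes were not tested against those shares. Of the 5 other formin genes listed (dia, DAAM, capu, Fhos and form3), 0 had more summits in the control pair, and 4 had no summit in any library. Fhos had 2 in control replicate 1 and 0 elsewhere. Ten-a, the other fly teneurin gene, is 291517 bp long on the X chromosome and had no summit in any library, nor did the leucine-rich repeat genes trn and caps. stan, which encodes the cadherin Flamingo, had 1 and 0 summits in control and 10 and 8 in H2O2. unk, the gene of the headcase partner Unkempt, and raptor had none. Having no summit was common. Of protein-coding genes of at least 15 kb, 31.9% and 22.4% had any in control replicates 1 and 2. In H2O2 replicates 1 and 2 the shares were 34.8% and 37.3%. Over all 13922 protein-coding genes the median was 0 summits per 10 kb in control and in H2O2. The lack of summits in these genes, and in br below, was therefore not read as a feature of their families.

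Of 12 further genes of BTB-domain factors, 3 had more summits in the control pair and 2 had more in the H2O2 pair. Of the 8 among them that are at least 20 kb long, 2 leaned each way, and genes of that length did so at 6.72% and 16.6%. The 3 were psq (6 and 7 in control, 0 and 1 in H2O2), fru (3 and 6 against 0 and 1) and mod(mdg4), an insulator protein gene (3 and 2 against 0 and 1). psq, which encodes the factor Pipsqueak, begins 14597 bp above lola and extends beyond the upper flank of lola, which held 2 and 3 control summits. The 2 with the converse were the neighbouring genes bab1 (0 and 0 in control, 4 and 1 in H2O2) and bab2 (0 and 0 against 1 and 4). br, 89738 bp long on the X chromosome, had no summit in any library. The median gene of this list had 0.520 summits per 10 kb in control and 0.146 in H2O2, while the median of all protein-coding genes was 0 in both.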

How the data were processed

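P-p38 ChIP-seq peak lists of 4 libraries (2 control, 2 H2O2) were used; inputs were left out. MACS2, Picard and build dm6 are named per the submitters' processing notes. Their versions and options, and the library used as background, were not given in the sources used here. The deposited lists hold 1 peak per line with a score, the authors' fold enrichment (a linear ratio), and a deposited p-value and q-value on the -log10 scale. The fold may be compared within a list only, so it was turned into percentiles over the peaks on the 6 arms. Score was not used further.

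Gene limits came from the RefSeq table of Release 6. A peak belonged to a gene by its summit. Covered bases were counted on peak intervals, and peaks sharing 1 bp or more formed a merged region. A region's fold percentile in a library was the highest among its peaks there. Python 3.11.15, pandas 2.3.3 and numpy 2.4.6 were used, and counting was tested on simulated summits. The genes, lists and rules were chosen with earlier results of these data known. The contrast chose the genes, so it received no test, and the smallest exact permutation p (two-sided) that 2 against 2 libraries can give is 0.333. Named besides the 4 genes were overlapping and adjacent genes (1 of them not reported here), the 6 long genes nearest in profile to their mean, the 1 nearest to each, and the related genes listed. The regions named were those of all 4 libraries, the widest in Ten-m, the region of 3 libraries in lola, and, in Frl, where no region had more than 2 libraries, the 2 with the highest value of the lower control percentile. Sequences were not used here, so planned motif searches were not run.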

Additional observations from a re-analysis of the deposited data

How the results depend on the processing

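All differences here are the control mean minus the H2O2 mean over the 4 genes, with no test. The main values were 3.74 summits per 10 kb, 33.3 percentage points of covered length, 236.5 bp of median width and 7.55 points of median fold percentile. At q of 1e-05 or less they were 1.30 summits and 19.9 points of coverage, and width and percentile had no value because no H2O2 peak was left. With lists of equal length the difference in fold percentile was -0.408. Percentiles there were still those of the full lists, and the cut by fold removed low ones mostly from the longer lists. That value therefore cannot decide the direction of the percentile difference, which stays unsettled. Leaving out Ten-m gave 2.30 summits, 11.5 points of coverage and 48.5 bp of width. Leaving out lola gave 4.24 summits and 39.7 points. Leaving out heca gave 4.83 summits, 47.0 points and a percentile difference of 18.1. Without 1 library at a time the ranges were 3.41 to 4.07 summits, 29.6 to 37.1 points, 191.25 to 281.75 bp and 1.94 to 13.2 percentile points. The 32 values for single genes all stayed above 0. The genes were chosen by this contrast, so that gives it no support, and values without 1 library could not have reached 0.

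The count of long genes with more control summits was 68. It was 23 at q of 1e-05 or less, where the converse count fell from 168 to 9. With lists of equal length it was 80, against 118 for the converse. It was 24 for genes of at least 50 kb, against 72 for the converse. For all protein-coding genes with a summit it was 528, against 444 for the converse. These are 3.79% and 3.19% of all 13922 protein-coding genes, so the balance seen in long genes was turned there. Without 1 library at a time, the count for genes of at least 20 kb was 85 to 161, the highest without control replicate 2. The converse count was then 183 to 281. Leaving out a library loosens the rule, so neither count could fall. The choice of genes of at least 15 kb (99) was added after the data were seen. Replicate numbers are shared between groups, but nothing in the labels pairs them. As a replicate block, the difference within replicate number 1 was 3.53 summits per 10 kb and within number 2 it was 3.94. The unknown depth and the 2 libraries per group limit all values.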
